A study of Rattus norvegicus with 22 samples.

Results

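A set of 10 genes of iron metabolism was followed in rat liver, and 9 were found by name among the 26276 gene names on the array. They were the hormone hepcidin (Hamp), the ligand and sensors that control its expression (Bmp6, Hfe and Tfr2), the uptake pair transferrin receptor and transferrin (Tfrc and Tf), the ferritin heavy chain (Fth1), and the export pair ferroportin and ceruloplasmin (Slc40a1 and Cp). They were represented by 15 probes, each a 60-base oligonucleotide. The 10th gene, the ferritin light chain Ftl1, is listed on the array as Ftl. It was recognised by its transcript accession and its values are given beside those of the others. The genes were chosen by name.

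The livers came from 22 male Sprague-Dawley rats kept in individual cages, and each array held the RNA of 1 rat. The rats received semi-synthetic diets from the age of 8 weeks. The groups were control diet for 3 months (CD 3, 5 rats), BASE-diet for 3 months (BD 3, 5 rats), control diet for 14 months (CD 14, 6 rats) and BASE-diet for 14 months (BD 14, 6 rats). BASE-diet contained salmon fat in place of most of the lard, a water extract of linden inflorescence, pumpkin puree and probiotic bacteria, none of which was in the control diet. Both diets shared the same casein base and the same amount of one mixture of micronutrients, in which iron was supplied as a citrate salt. Cy5 carried the RNA of the rat and Cy3 a common reference of liver RNA from healthy 10-week-old rats outside the experiment, so each value is the log2 ratio of Cy5 to Cy3, and 0 means the level of the reference. Time on diet and age cannot be told apart, since all rats started at the same age.

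Hepcidin is a peptide hormone made by hepatocytes that limits the entry of iron into plasma by causing the breakdown of ferroportin. Its transcription is raised by the bone morphogenetic protein (BMP) pathway, which reads iron stores, with the help of Hfe and Tfr2, and by interleukin-6 through Stat3 in inflammation. Iron travels in plasma on transferrin, enters cells through transferrin receptor 1, is stored in ferritin and leaves through ferroportin with the help of the ferroxidase ceruloplasmin. The Tfrc messenger is stabilised when cellular iron is low, whereas ferritin is regulated mostly at translation.

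Probes of Hfe, Tfrc and Cp whose readings are compared with each other in the results are shown here so that the measured stretch of each transcript can be seen. Coordinates are on the rn4 build. The 2 Hfe probes (A_64_P144794 at chr17:48471827-48471886 and A_44_P172140 at chr17:48473464-48473523, both minus strand) allowed each reading of that gene to be taken from separate stretches. The Tfrc probe (A_44_P313767, chr11:69978846-69980500, minus strand) crosses an intron, so that its genomic span exceeds its length. The Cp probe (A_43_P11448, chr2:105129670-105129729, plus strand) is the one that gave the largest gap on any 1 array to the main probe of its gene, the probe of highest mean Cy5 intensity.
Hfe probe A_64_P144794: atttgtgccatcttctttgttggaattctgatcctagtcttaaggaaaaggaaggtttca
Hfe probe A_44_P172140: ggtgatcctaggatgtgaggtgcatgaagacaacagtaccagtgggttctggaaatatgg
Tfrc probe A_44_P313767: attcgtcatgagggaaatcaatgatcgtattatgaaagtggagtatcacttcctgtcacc
Cp probe A_43_P11448: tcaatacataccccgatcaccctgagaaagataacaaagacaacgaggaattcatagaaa

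The 250 bases before the Hamp start in RefSeq (GRCr8, chr1:95300272-95300521, minus strand) are printed because 1 rat gave a Hamp value far from all others. Capitals mark GGCGCC, the letters of the BMP-responsive element, which begin 129 bases before the start, and TTCTTGGAA, a match to the STAT letters TTCNNNGAA, which begin 117 bases before it.
Hamp promoter: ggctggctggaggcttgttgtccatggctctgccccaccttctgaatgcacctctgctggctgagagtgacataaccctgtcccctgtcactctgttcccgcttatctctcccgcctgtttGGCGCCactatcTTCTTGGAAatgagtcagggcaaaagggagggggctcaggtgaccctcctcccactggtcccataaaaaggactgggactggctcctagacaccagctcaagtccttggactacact
With both strands read, GGCGCC was present in 8.69% and TTCNNNGAA in 7.67% of 33469 promoter windows of this length, and the matches do not overlap each other. GGCGCC was also found 118 bases before the Tfrc start and at 2 places before that of Smad7, an inhibitory BMP target. Neither set of letters was in the windows of Bmp6, Tfr2, Tf, Slc40a1, Cp or the BMP target Id1, and Hfe, Fth1 and Ftl1 were not among the windows.

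Signal well above background was recorded for 52.4% to 93.6% of spots per array, and the median background-subtracted Cy5 intensity ran from 21.8 to 488. The number of arrays limits the precision, with a median residual SD of 0.53 on the log2 scale over the 19434 probes tested. The arrays lay on 5 slides. All 6 BD 14 rats were on slide C together with 2 CD 14 rats, and the remaining CD 14 rats were on slide A (3, beside 3 BD 3 rats) and slide E (1, beside 1 CD 3 rat). Slide B carried 2 BD 3 rats and 1 CD 3 rat, and slide D carried 3 CD 3 rats. Hepatocyte markers passed the filter in 5 of 5 cases, whereas the T cell marker Cd2 was never well above background in BD 3, CD 14 or BD 14.

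No iron gene differed between the groups after adjustment, and hepcidin had an SD of 1.17 over the 22 rats, or 0.43 without CD 14 rat 4. Of the 8 genes found by name that passed the filter on dim probes, none passed an adjusted p of 0.05 (limma, Benjamini-Hochberg over 19434 probes) in the F test among the 4 groups, in any of the 4 comparisons of diet or time, or in the interaction of diet and time. The same test called 0.0257% of all probes among the 4 groups and 0% in each of the comparisons of diet (BD 3 against CD 3, BD 14 against CD 14), of time (CD 14 against CD 3, BD 14 against BD 3) and the interaction. On the main probe of each gene, Hamp was at an unadjusted p under 0.05 the only one of the 8 in BD 14 against CD 14, where 4.6% of all probes lay under it, and Cp the only one in CD 14 against CD 3, where the share was 10.1%. None of these main probes lay under it among the 4 groups (10.5% of all probes), in BD 3 against CD 3 (7.11%), in BD 14 against BD 3 (7.44%) or in the interaction (4.8%). Of the other probes of these genes that were tested, 1 of Cp (A_43_P11448) and 1 of Slc40a1 (A_44_P819401) also lay under it in CD 14 against CD 3 (unadjusted p = 0.0301 and 0.00741) and among the 4 groups (0.0427 and 0.0428). In no comparison were the values of 2 groups without overlap for any of the 8, against 0.756% of all probes in BD 3 against CD 3, 0.767% in BD 14 against CD 14, 0.515% in CD 14 against CD 3, and a share of 2.26% in BD 14 against BD 3.

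Over the 8 genes the median log2 difference was 0.23 for BD 3 minus CD 3, with 5 of 8 genes higher, where the median over all probes tested was 0.03. It was -0.01 for BD 14 minus CD 14, with 4 of 8 higher and an overall median of 0.05. It was 0.24 for CD 14 minus CD 3, with 6 of 8 higher and an overall median of 0.03. For BD 14 minus BD 3 it was 0.07, with 6 of 8 higher and an overall median of 0.07.

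**Figure D1:**
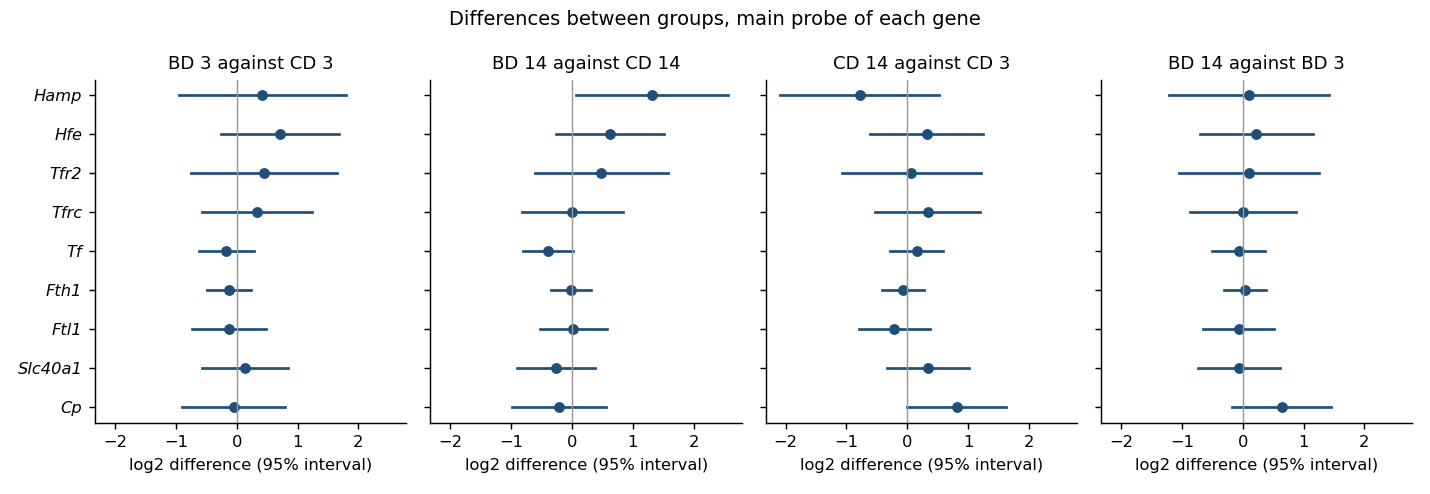
Log2 difference between groups for the main probe of each gene, with points for the estimate of the 4-group fit and bars for its 95% interval, in each of 4 comparisons. The intervals cross 0 except for Hamp in BD 14 against CD 14 (0.06 to 2.56) and Cp in CD 14 against CD 3 (0.00 to 1.62), and neither passed after adjustment.

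Hamp was read by 10 spots on every array and was well above background on all 22. In CD 3 the log2 ratios were 0.70, 0.03, 0.60, 0.19 and 0.60 for rats 1 to 5. In BD 3 they were 0.80, 0.74, 1.11, 0.30 and 1.27. In CD 14 they were -0.51, 0.86, 0.57, -4.44, 0.64 and 0.70 for rats 1 to 6. In BD 14 they were 0.45, 0.79, 0.95, 1.30, 1.13 and 1.04. CD 14 rat 4 stood far below every other rat, CD 14 rat 1 was the next lowest, and the remaining 20 rats lay above the reference in all groups. The group means were 0.42 ± 0.30 (SD, n = 5), 0.84 ± 0.37 (SD, n = 5), -0.36 ± 2.06 (SD, n = 6) and 0.95 ± 0.30 (SD, n = 6), respectively.

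The low reading belonged to the channel of the rat. On CD 14 rat 4 the Hamp Cy5 intensity was 2552, whereas it was between 26745 and 119592 on the other arrays. The Cy3 intensity of the reference was 55398 on this array and 18982 to 79115 on the others. Its 10 spots lay between -4.49 and -4.37, with an SD of 0.04. Against the median of the other 5 CD 14 rats, at 0.64, the level was 33.9-fold lower. Only 5 of the 19434 probes tested were as far below the group mates on that array and 0 were as far above, and on the other CD 14 arrays 0 to 4 probes lay as far below and 0 to 3 as far above. On that array 69.0% of spots were well above background.

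At 14 months the mean Hamp level of BD 14 was 2.48-fold that of CD 14, a log2 difference of 1.31 ± 0.60 (SE; unadjusted p = 0.041, adjusted p = 0.952, limma). Without CD 14 rat 4 the difference fell to 0.49 ± 0.24 (1.41-fold; unadjusted p = 0.054, adjusted p = 0.902). With slide as a fixed block it was 2.84 (adjusted p = 0.334), a value that rests within slide C on 6 BD 14 rats and on CD 14 rats 4 and 5 alone. The mean of BD 14 exceeded that of CD 14 under every alternative run. At 3 months the difference was 0.42 ± 0.66 (adjusted p = 0.936), and -0.12 when the Cy5 channel was used without the reference. Between the BD 14 and BD 3 groups it was 0.10 ± 0.63 (adjusted p = 0.981), and 2.36 with slide as a fixed block. BD 14 and BD 3 shared no slide, so the blocked value is indirect and runs through CD 14 rats 4 and 5 on slide C. The difference of CD 14 minus CD 3 was -0.79 ± 0.63 (adjusted p = 0.724), which became 0.03 without CD 14 rat 4. The interaction of diet and time was 0.89 ± 0.89 (adjusted p = 0.999) and ranged from 0.07 without that rat to 2.55 with slide as a fixed block. At 14 months the blocked interaction rests on the same rats of slide C. No setting brought the interaction past the adjusted test.

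**Figure D2:**
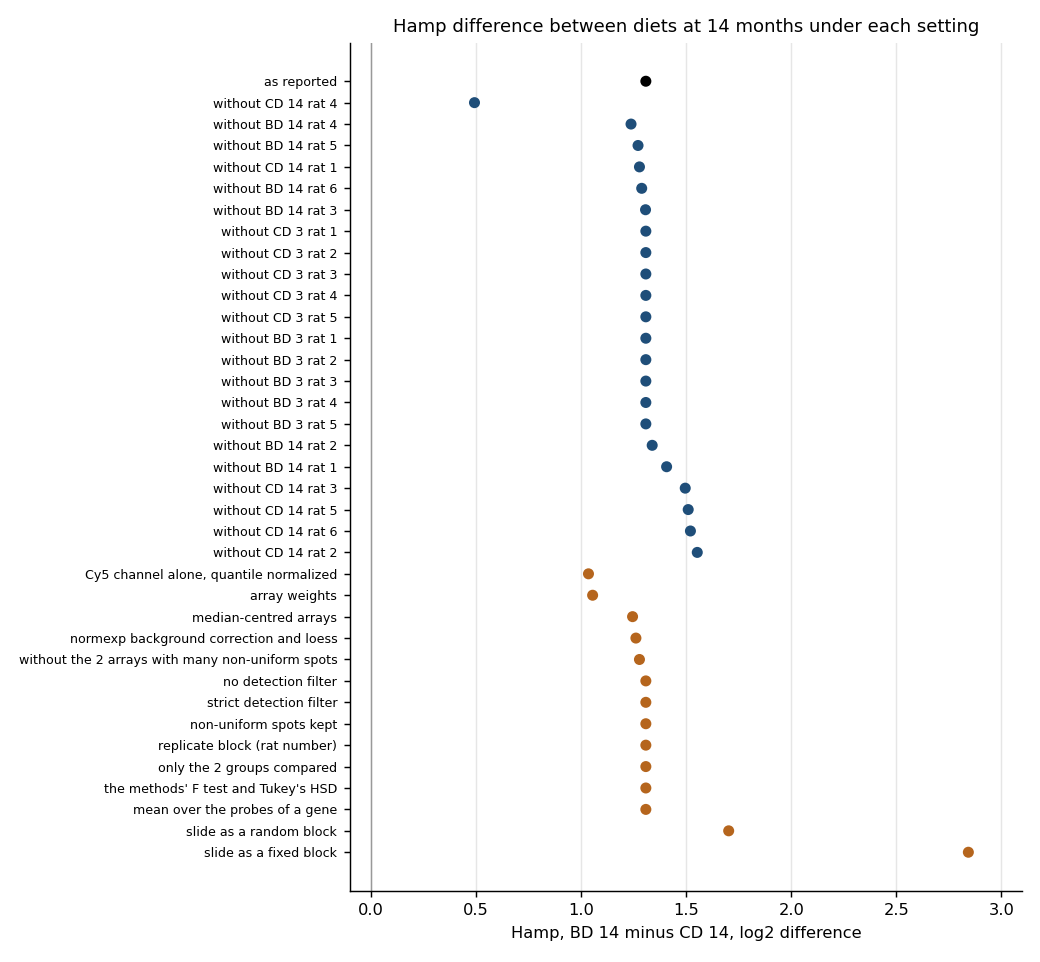
Log2 difference of Hamp in BD 14 minus CD 14 as reported (black), with each array left out in turn (blue) and under the other settings (orange). All points lie above 0, from 0.49 without CD 14 rat 4 to 2.84 with slide as a fixed block.

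The rat with the lowest Hamp had the highest Tfrc log2 ratio of all 22 on both probes. It was 1.84 on the main probe, where the others ranged from -0.83 to 1.01. On the second probe it was 2.47, where they ranged from -1.62 to 1.17. The Cy5 intensity of this rat was the highest on the main probe (2225) but not on the dim second probe. There it was 55.5, below CD 3 rat 1 (86.2), CD 14 rat 3 (66.98) and CD 14 rat 1 (57.6). The Cy3 intensity of the reference was 9.99 on that probe, near the low end of its range over the arrays (8.69 to 70.98). The ratio of the second probe thus rests in part on a low reference reading. Of the genes downstream of BMP, Smad7 was at -1.06 (21st of 22 from the highest) and Id1 at -0.11 (16th). Ftmt, the mitochondrial ferritin, at -1.85, Hmox2, a heme oxygenase, at -1.22 and Slc39a8, a metal importer, at -0.74 were each the lowest of the 22, and Steap3, the endosomal ferrireductase, at -1.48 was 21st. Haptoglobin (Hp), an acute phase protein that binds free hemoglobin, was second highest at 2.08, and hemopexin (Hpx), the heme carrier of plasma, was highest at 1.25. Socs3, a target of Stat3, was second highest at 0.81. The mean of the acute phase markers was 1.81 (3rd highest), that of the Kupffer cell markers 0.06 (2nd), that of the leukocyte markers 0.59 (2nd) and that of the red cell markers -0.10 (4th). Their part in the Hamp and Tfrc values was not tested. The iron and heme genes named at the extremes were picked for their rank, and marker genes were extreme too. Cdh5 (-1.03), an endothelial marker, was the lowest of the 22. Itih4 (2.10), Hbb (0.31) and Ptprc (1.03), markers of other lists, were the highest. Over the tested probes, differences of this array from the median of its group mates had an SD of 0.72. On the other CD 14 arrays that SD was 0.51 to 0.69. On the main probes, the Fth1 (0.41), Ftl (-0.21), Slc40a1 (-0.13) and Tfr2 (0.16) values of this rat lay within the range of its group mates. So did Hfe (-0.63), Tf (0.54) and Cp (1.43). A further Cp probe (A_64_P092201), annotated to a GPI-anchored form, read -0.88 in this rat, the lowest of the 22.

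**Figure D3:**
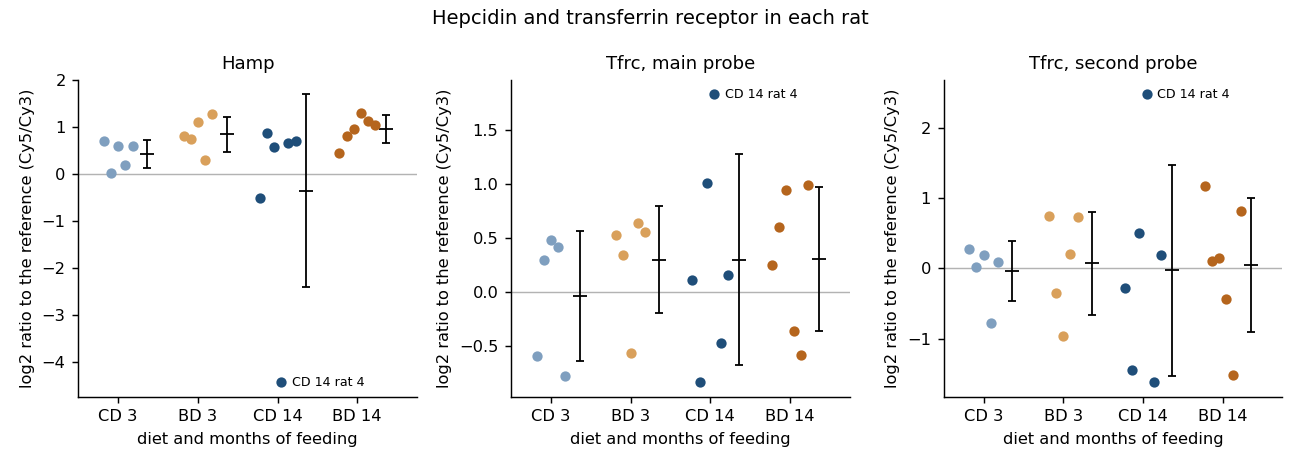
Log2 ratio to the reference of Hamp and of both Tfrc probes in each rat (points) by diet and months of feeding, with the mean ± SD of each group beside the points. CD 14 rat 4 is lowest for Hamp (-4.44) and highest for Tfrc (1.84 and 2.47).

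The sensors Hfe and Tfr2 gave no difference that passed the test, and the BMP ligand was not tested between groups. Bmp6, which in liver is made mainly by sinusoidal endothelial cells, was too dim for that test. It was well above background on 6 of 22 arrays, namely 1 CD 3, 2 BD 3, 1 CD 14 and 2 BD 14 arrays, with Cy5 intensities from 2.72 to 27.9. In whole liver, fewer cells of a type and less RNA per cell cannot be told apart.

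Hfe, an MHC-like protein that joins the sensing of transferrin saturation, had a higher mean on BASE-diet at both times, without passing the test. On the main probe CD 3 read 0.19, 0.53, -0.39, -2.10 and -0.27, and BD 3 read 0.47, 0.43, 1.04, -0.48 and 0.06. CD 14 read -0.71, 1.25, -0.56, -0.63, 0.58 and -0.48, and BD 14 read 0.67, -0.00, 0.40, 1.34, 1.17 and -0.39. The groups overlapped at both times, and CD 3 rat 4 was the lowest of all rats. The mean of the hepatocyte markers in that rat was also the lowest of 22 (-1.82), as was the median background-subtracted Cy5 intensity of its array (21.8), and their part in its values was not tested. The difference was 0.71 ± 0.47 (SE; adjusted p = 0.818) at 3 months, 0.29 without CD 3 rat 4 and 0.17 with slide as a fixed block. At 14 months it was 0.62 ± 0.42 (adjusted p = 0.952), with values between 0.46 and 0.89 when each rat was left out. The second Hfe probe gave 0.69 ± 0.61 (adjusted p = 0.873) and 0.88 ± 0.56 (adjusted p = 0.952), and the first became a difference of means of -0.07 without CD 3 rat 4, where this probe was not well above background.

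Tfr2, the hepatocyte receptor that senses transferrin-bound iron, varied most in CD 3, where the rats read -0.04, 2.28, -0.44, -3.09 and -0.40. In BD 3 they read 0.37, 0.71, -0.70, 0.20 and -0.05. The lowest, median and highest values were -0.85, -0.27 and 0.16 in CD 14 and -0.29, 0.19 and 0.61 in BD 14. CD 3 thus held both the highest and the lowest rat of the series. The same rats 2 and 4 were the highest (0.44) and the lowest (-1.82) of 22 for the mean of the hepatocyte markers, whose part was not tested. The difference at 3 months was 0.45 ± 0.58 (adjusted p = 0.918), and it turned to -0.24 without CD 3 rat 4 and was 1.10 without CD 3 rat 2. With the Cy5 channel alone it was 1.45 (unadjusted p = 0.0028, adjusted p = 0.092). At 14 months it was 0.48 ± 0.53 (adjusted p = 0.952), and -0.07 with the Cy5 channel alone.

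The uptake genes did not separate the groups. Tfrc, which brings transferrin-bound iron into cells, averaged -0.03 ± 0.60 (SD, n = 5) and 0.30 ± 0.50 (SD, n = 5) on the control diet and BASE-diet for 3 months, and 0.30 ± 0.98 (SD, n = 6) and 0.31 ± 0.66 (SD, n = 6) for 14 months. The difference between diets was 0.34 ± 0.43 (SE; adjusted p = 0.918) at 3 months, and 1.04 with slide as a fixed block. It was 0.02 with the Cy5 channel alone and 0.15 without CD 3 rat 5. At 14 months it was 0.01 ± 0.40 (adjusted p = 0.999), with a 95% interval of -0.82 to 0.83 that leaves room for changes of either sign. That difference was 0.31 without CD 14 rat 4 and -0.37 with slide as a fixed block. CD 14 minus CD 3 was 0.34 ± 0.42 (adjusted p = 0.846), 0.03 without CD 14 rat 4 and 0.92 with slide as a fixed block.

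Tf, the plasma carrier, was among the steadier genes. In CD 3 it read 0.38, 0.65, 0.50, 0.21 and 0.78, and in BD 3 0.36, 0.18, 0.58, 0.22 and 0.33. In CD 14 it read 0.17, 0.33, 0.93, 0.54, 0.49 and 1.51, and in BD 14 0.62, 0.11, -0.15, 0.27, 0.27 and 0.50. CD 14 rat 6 was the highest of all. The difference of BD 14 minus CD 14 was -0.39 ± 0.20 (SE; unadjusted p = 0.064, adjusted p = 0.952). It was -0.22 without CD 14 rat 6, and 0.01 when the Cy5 channel was used without the reference. At 3 months the difference was -0.17 ± 0.22 (adjusted p = 0.918).

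Of the iron genes, the ferritin heavy chain varied least over the 22 rats (SD 0.22 on its main probe). Fth1, the chain with ferroxidase activity, had means of 0.36 ± 0.19 (SD, n = 5), 0.23 ± 0.21 (SD, n = 5), 0.29 ± 0.28 (SD, n = 6) and 0.27 ± 0.21 (SD, n = 6) for the groups in the order used above. Its differences between groups lay between -0.13 and 0.04, with standard errors of 0.16 to 0.17. The 95% interval at 14 months was -0.35 to 0.31, narrower than that of any other gene of the set. The 2 Fth1 probes differed by a median of 0.08 per array and by at most 0.25. Ftl, the light chain that aids mineralisation of the core, had means of 0.06 ± 0.65 (SD, n = 5), -0.07 ± 0.33 (SD, n = 5), -0.16 ± 0.38 (SD, n = 6) and -0.14 ± 0.44 (SD, n = 6). Its diet difference was -0.13 ± 0.29 (SE) at 3 months and 0.02 ± 0.27 at 14 months (adjusted p = 0.956 and 0.998).

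Slc40a1, the only known exporter of iron from cells and the target of hepcidin, averaged -0.31 ± 0.66 (SD, n = 5) and -0.18 ± 0.58 (SD, n = 5) on the main probe for the control diet and BASE-diet at 3 months, and 0.02 ± 0.26 (SD, n = 6) and -0.24 ± 0.63 (SD, n = 6) at 14 months. In CD 3 the rats read -0.79, -0.12, -1.20, 0.15 and 0.39, and in CD 14 they read -0.27, -0.17, 0.40, -0.13, 0.27 and 0.03, so the ranges overlapped. CD 14 minus CD 3 was 0.33 ± 0.32 (SE; adjusted p = 0.789) on this probe and 0.89 ± 0.30 (unadjusted p = 0.0074, adjusted p = 0.309) on the second one. The value on the main probe was 0.11 without CD 3 rat 3 and -0.04 with slide as a fixed block. The probes differed by a median of 0.22 per array, and most on CD 3 rat 4, which read 0.15 on the main probe and -1.32 on the second. The diet difference on the main probe was 0.13 ± 0.34 (adjusted p = 0.962) at 3 months, and -0.09 without CD 3 rat 3. At 14 months it was -0.26 ± 0.31 (adjusted p = 0.954), and -0.04 without BD 14 rat 2. The second probe gave 0.57 ± 0.32 (adjusted p = 0.780) at 3 months, or 0.39 to 0.80 as a difference of means when each CD 3 rat was left out, and -0.16 ± 0.29 (adjusted p = 0.961) at 14 months.

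Cp, the plasma ferroxidase and an acute phase protein, had a higher mean after 14 months than after 3 on both diets, without passing the adjusted test. In CD 3 the main probe read 0.02, -0.02, -1.08, 0.85 and 0.73, and in BD 3 -0.60, -0.63, 0.50, 0.72 and 0.28. In CD 14 it read 0.60, 0.35, -0.05, 1.43, 1.90 and 1.23, and in BD 14 0.04, 0.97, 0.31, 0.58, 1.62 and 0.65. The ranges of young and old rats overlapped on each diet. CD 14 minus CD 3 was 0.81 ± 0.39 (SE; 1.75-fold, unadjusted p = 0.0497, adjusted p = 0.491), and BD 14 minus BD 3 was 0.64 ± 0.39 (adjusted p = 0.736). The first value was 0.51 without CD 3 rat 3 and turned to -0.14 with slide as a fixed block, and the second turned to -0.96 with that block. CD 14 and CD 3 shared slide E alone, with 1 array each, where CD 14 minus CD 3 was 0.51, and BD 14 and BD 3 shared no slide. The diet differences were -0.05 ± 0.41 (adjusted p = 0.991) at 3 months and -0.22 ± 0.37 (adjusted p = 0.961) at 14 months. The first ranged from -0.34 without CD 3 rat 3 to 0.14 without CD 3 rat 4. The second was -0.02 without CD 14 rat 5 and -0.97 with slide as a fixed block.

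A further Cp probe (A_43_P11448) gave 1.02 ± 0.44 (SE; adjusted p = 0.431) for CD 14 minus CD 3, and a difference of means of 0.51 without CD 3 rat 4. Its diet differences were 0.59 ± 0.46 (adjusted p = 0.845) at 3 months, with a difference of means of 0.08 without CD 3 rat 4, and 0.27 ± 0.42 (adjusted p = 0.959) at 14 months. The probe annotated to the GPI-anchored form, which stays on the cell surface, gave -0.40 ± 0.24 (adjusted p = 0.598) for CD 14 minus CD 3. On CD 3 rat 4 the main Cp probe read 0.85 and A_43_P11448 read -2.60, the widest gap between 2 probes of a gene in the set. That array had the smallest share of spots well above background. The per-rat mean of the acute phase markers had group medians of -0.33 and -0.04 at 3 months (control and BASE-diet) and of 0.56 and 0.18 at 14 months, with 4 of 7 genes higher at an unadjusted p under 0.05 in CD 14 against CD 3, where 10.1% of all probes lay under it in either direction. The mean of the Kupffer cell markers had medians of -1.76, -0.90, -0.66 and -0.65 in the same order, with 4 of 5 genes higher in that comparison at the same threshold. Their part in the Cp and Slc40a1 differences was not tested.

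**Figure D4:**
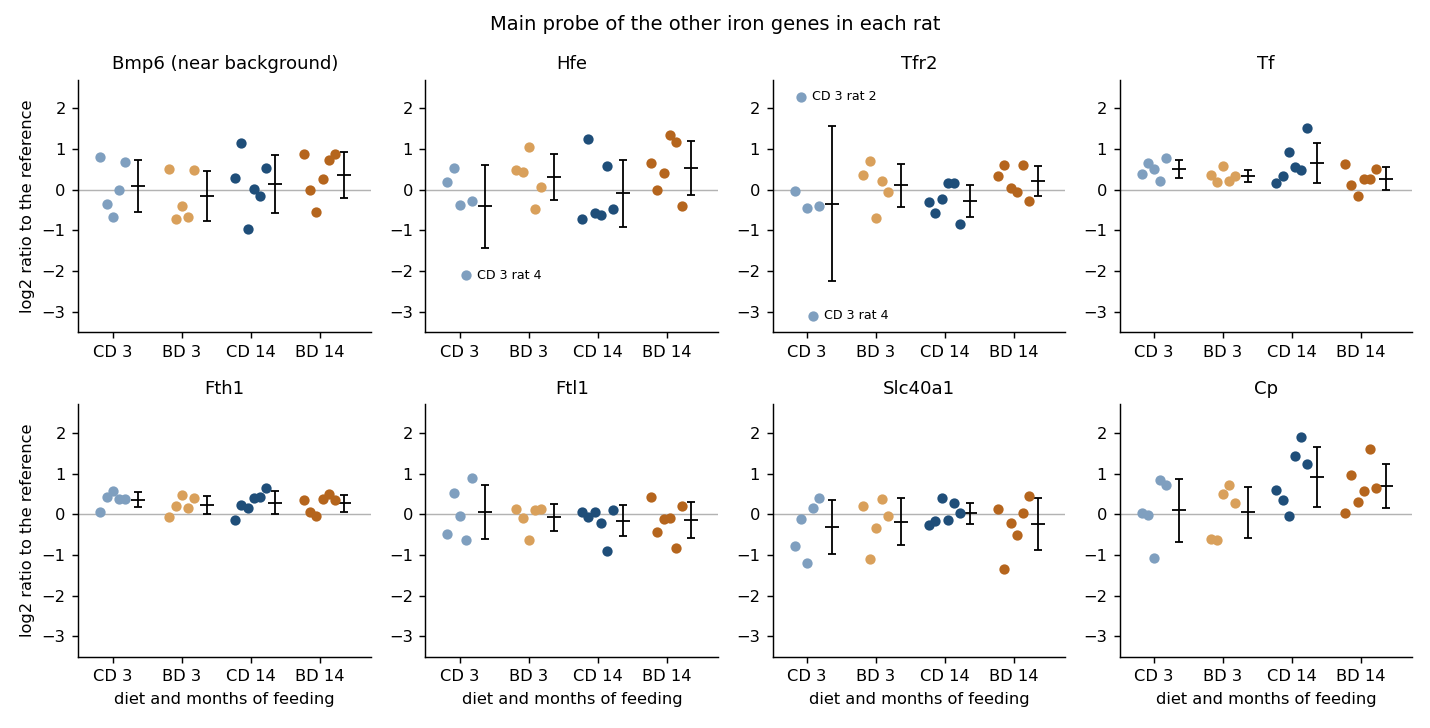
Log2 ratio to the reference of the main probe of Bmp6, Hfe, Tfr2, Tf, Fth1, Ftl1 (Ftl on the array), Slc40a1 and Cp in each rat, by diet and months of feeding, with the mean ± SD of each group beside the points. Fth1 lies closest together, and CD 3 rats 2 and 4 set the spread of Tfr2 (2.28 and -3.09).

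**Figure D5:**
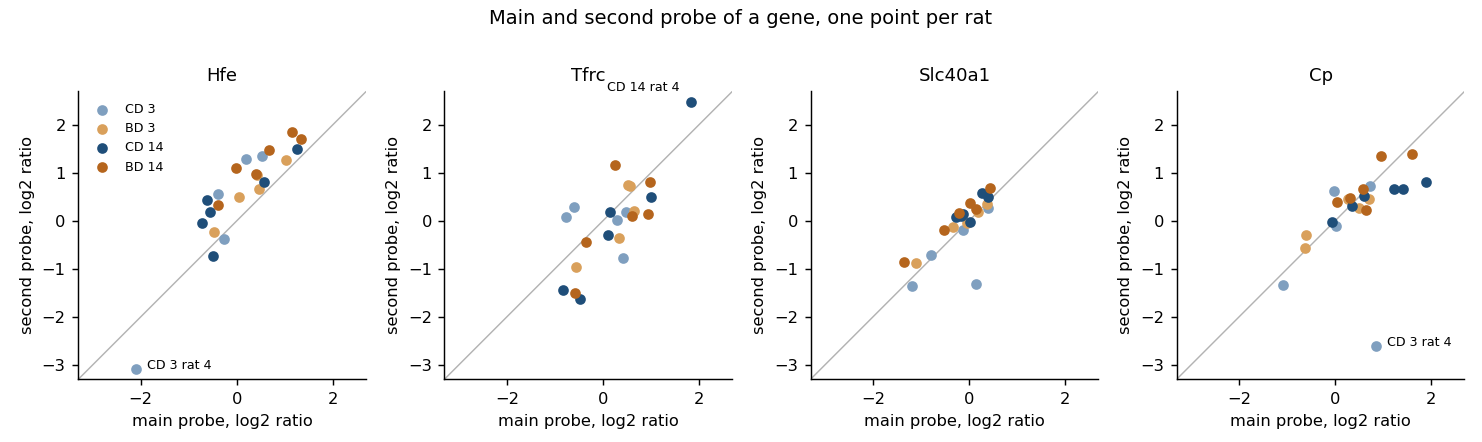
Log2 ratio of the second probe against that of the main probe for Hfe, Tfrc, Slc40a1 and Cp, with 1 point per rat and the line of equality. CD 3 rat 4 lies off the line for Cp (0.85 and -2.60) and Slc40a1 (0.15 and -1.32), and CD 14 rat 4 is highest on both Tfrc probes.

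The wider pathway around these genes was read from 3 lists. Of 20 genes that control hepcidin 18 were found on the array and tested, with Hjv under its older name Hfe2, of 14 genes of iron handling 14, and of 18 genes of heme and iron-sulphur metabolism 17. No gene of the lists passed after adjustment in any comparison. The shares of all probes with an unadjusted p under 0.05, in either direction, were 7.11% in BD 3 against CD 3, 4.6% in BD 14 against CD 14, and 10.1% in CD 14 against CD 3. For BD 14 against BD 3 the share was 7.44%. Of the 18 hepcidin control genes, 1 was higher under that threshold in the first of these comparisons, 2 in the second, 1 in the third and 4 in the last, with none lower. The counts of 2 and of 4 include Acvr1, which passed the filter on dim probes only through BD 14. Of the 14 iron handling genes, 3 were higher in BD 3 against CD 3 and 3 in CD 14 against CD 3, with none lower. Of the 17 heme and iron-sulphur genes, 4 were higher in CD 14 against CD 3, and 1 was lower in BD 14 against BD 3. The median differences of the hepcidin control genes were 0.13 in BD 3 against CD 3 and 0.19 in BD 14 against CD 14. Those of the iron handling genes were 0.38 in BD 3 against CD 3 and 0.38 in CD 14 against CD 3, which share the CD 3 rats, and they were 0.08 in BD 14 against CD 14 and 0.19 in BD 14 against BD 3, where none of these genes had an unadjusted p under 0.05.

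Among the hepcidin control genes, Id1, an inhibitor of differentiation that BMP signalling induces, averaged -0.06 ± 1.37 (SD, n = 5) for CD 3 and 0.20 ± 0.46 (SD, n = 5) for BD 3, and then 0.30 ± 0.51 (SD, n = 6) for CD 14 against 1.30 ± 0.62 (SD, n = 6) for BD 14. In BD 14 it ranged from 0.59 to 2.06 and in CD 14 from -0.25 to 0.83, with overlap. BD 14 minus CD 14 was 1.00 ± 0.44 (SE; adjusted p = 0.952), with values from 0.66 under normexp background correction to 2.44 with the Cy5 channel alone. BD 14 minus BD 3 was 1.10 ± 0.46 (adjusted p = 0.603), with values from 0.55 with slide as a fixed block to 2.76 with the Cy5 channel alone. Acvr1, a BMP type I receptor, averaged -0.43 in CD 3, -0.14 in BD 3 and -0.29 in CD 14, against 0.87 in BD 14. It was dim, well above background on 6 of 6 BD 14 arrays but on 3 of 6 CD 14, 4 of 5 BD 3 and 2 of 5 CD 3 arrays, so these means are given as a description without a test. BD 14 minus CD 14 was 1.16, and 0.20 under normexp background correction. Bmp2, a further ligand, gave 0.75 ± 0.31 in BD 3 minus CD 3 (adjusted p = 0.620), with values from 0.48 without CD 3 rat 1 to 1.15 with slide as a fixed block, and -0.38 ± 0.28 in BD 14 minus CD 14 (adjusted p = 0.952). Smad4, the shared partner of the BMP Smads, gave 0.67 ± 0.26 in BD 14 minus BD 3 (adjusted p = 0.574), and -0.22 with slide as a fixed block. BD 14 and BD 3 shared no slide, so the blocked values of Id1 and Smad4 for that comparison are indirect.

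Among the handling genes, hephaestin (Heph), the membrane-bound relative of ceruloplasmin, had its lowest mean in CD 3 (-1.69). Its lowest, median and highest values were -2.31, -2.07 and 0.02 there and -0.89, -0.40 and 0.79 for BD 3. At 14 months they were -0.81, 0.31 and 1.59 for CD 14 rats, and BD 14 rats gave -0.70, 0.33 and 0.64. The highest CD 3 value was that of rat 5. The probe was dim in CD 3, well above background on 4 of 5 arrays with a median Cy5 intensity of 11.2. CD 14 minus CD 3 was 2.03 ± 0.47 (SE; 4.07-fold, unadjusted p = 0.00028, adjusted p = 0.177), and without CD 3 rat 5 it was 2.45 and passed (adjusted p = 0.0098). Without that rat 205 of all 19434 probes passed in this comparison, against 0 with all rats. The Heph difference was 0.94 with the Cy5 channel alone and 0.56 under normexp background correction. BD 3 minus CD 3 was 1.42 ± 0.49 (adjusted p = 0.505), and 0.34 under normexp background correction. Pcbp2, an iron chaperone, gave 1.52 ± 0.62 in BD 3 minus CD 3 (adjusted p = 0.611), where the lowest, median and highest CD 3 values were -4.56, -0.48 and 0.38. It was 0.80 without CD 3 rat 4, the lowest, and 0.11 with slide as a fixed block. Hp and Hpx gave CD 14 minus CD 3 values of 1.12 ± 0.36 (adjusted p = 0.282) and 1.06 ± 0.32 (adjusted p = 0.258), respectively, beside the acute phase markers given above. With slide as a fixed block they were 0.59 and 0.57, and with the Cy5 channel alone 0.23 and 0.55.

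Across the 22 rats, 7 relations between the genes and their known partners were computed, with permutation p-values adjusted over the 7. Tfrc and Slc11a2, the divalent metal transporter that moves endosomal iron into the cytosol, gave Pearson r = 0.45 (p = 0.037, adjusted p = 0.262) and Spearman rho = 0.47 (p = 0.028, adjusted p = 0.194). Without CD 14 rats 4 and 2, the farthest from the Tfrc median, r was 0.36 (permutation p = 0.124). With group means removed r was 0.52 (permutation p = 0.012), and with slide means removed r was 0.64 (permutation p = 0.0014). Within slide C it was 0.71 (n = 8, exact p = 0.046), or 0.68 without CD 14 rat 4 (n = 7, exact p = 0.076). Within slide A it was 0.82 (n = 6, exact p = 0.025). Hamp and Id1 gave r = 0.22 (permutation p = 0.280, adjusted p = 0.564) and rho = 0.32 (permutation p = 0.146, adjusted p = 0.340) over all rats, and 0.20 (permutation p = 0.411) without CD 14 rats 4 and 1. It was 0.13 (permutation p = 0.512) with group means removed and 0.42 (permutation p = 0.043) with slide means removed. Within slide C, which mixes the 6 BD 14 rats with 2 CD 14 rats, r was 0.74 (n = 8, exact p = 0.0013) and 0.81 without CD 14 rat 4 (n = 7, exact p = 0.031), whereas within slide A it was 0.21 (n = 6, exact p = 0.726). The p-values within slides were not adjusted, and whether the slides differed was not tested. Hamp gave r = 0.15 with Smad7, 0.10 with Bmp6, -0.04 with Tfr2 and -0.23 with Socs3, and Fth1 gave -0.06 with Ftl, all with an adjusted permutation p of 0.408 or above. Bmp6 was well above background on 6 of 22 arrays, so its r rests mostly on values near background and cannot decide whether the genes vary together.

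The genes whose pattern over the 22 rats was most like that of Hamp, of 16496 compared, were Wrap53 (r = 0.94), LOC689727 (0.91), Tmc3 (0.88), Ptk2b (0.88) and the unnamed probe A_64_P022903 (0.84). Without CD 14 rat 4, in which all 5 were at their lowest, r was 0.85, 0.65, 0.06, 0.70 and 0.11, so the likeness of Tmc3 and of the unnamed probe came from that rat. For Tfrc they included Psmd12 (0.82), Ltv1 (0.76), Farsa (0.75) and Gtf2f1 (0.75), and without that rat r lay between 0.70 and 0.78. These values are descriptions, since the genes were picked for them and all points share the arrays and the reference.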

How the data were processed

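RNA from 22 rat livers was hybridised to Agilent 2-colour arrays, 1 rat per array, with no dye swap. The processed intensity values and log10 ratios were made by the authors with Agilent Feature Extraction, which subtracts background and normalizes the dyes by Lowess within each array. Its version is 10.7.3.1 in the methods and 10.10.1.1 in the file headers, which annotate the probes to rn4. The direction of the ratio follows the labels (Cy5 rat, Cy3 reference). One sentence of the methods assigns the dyes to the diets instead. The authors also deposited log2 values of 3017 entries chosen as significant, whose 22 per-sample columns were not used.

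Log10 ratios were multiplied by 3.32 to log2, spots of one probe were averaged, and neither control spots nor non-uniform ones entered. Testing required that, on all arrays of some group, a share of at least 0.5 of the spots of a probe exceed the Cy5 background well (19434 of 30367 probes, of which 698 lacked a value on some array). The main probe of a gene has the highest mean Cy5 intensity. The groups were set against each other with limma 3.58.1 (R 4.3.3; 4 group means, eBayes, Benjamini-Hochberg over all probes tested, threshold 0.05), which was tested on simulated data. Correlations used 100000 permutations (scipy 1.17.1, numpy 2.4.6, pandas 2.3.3) or, on slides with few rats, all orders. The 8th relation planned, with Smad6, had no probe by that name, and neither did Il6ra or Flvcr1 in the lists. The p-values measure the spread between rats.

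The genes and lists were chosen with earlier results of these data known. Of the lists, genes were named when an unadjusted p was under 0.05 in a diet or time comparison (at most the 3 smallest per comparison) or when they entered a relation, and the 5 most like Hamp and Tfrc were named by Pearson r, except for 1 gene that is not reported here. Values of CD 14 rat 4 were chosen after its Hamp value was seen. Alternatives were other background correction and scaling, Cy5 alone, detection filters, non-uniform spots kept, slide and replicate blocks, array weights, fits of 2 groups, the methods' F test with Tukey's test, probe means and leaving out each array. Slide as a random block and leaving out 2 arrays with many non-uniform spots were added after seeing the data.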

Additional observations from a re-analysis of the deposited data

Results flagged for a closer look

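Dixon's test was applied to the main probe of each gene in each group, 32 groups in all, and it marks about 1 in 20 groups by chance. Hamp in CD 14 rat 4 (-4.44) lay below the next lowest rat of its group by 0.741 of the range of the group, above the critical value of 0.625. Tfrc in BD 3 rat 3 (-0.56) lay below the other BD 3 rats by 0.749 of the range, above the critical value of 0.710.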

How the results depend on the processing

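The count of iron genes passing after adjustment was 0 in each comparison under every alternative run. For the genes of the 3 lists it was 0 as well, except among the 4 groups, where it was 1 with Cy5 alone (Slc46a1, adjusted p = 0.0399) and 1 without CD 3 rat 5 (Heph, adjusted p = 0.0213), and in CD 14 against CD 3, where it was 1 without that rat (Heph). With each array left out, both counts thus ranged from 0 to 1. Of all 19434 probes, 106 passed among the 4 groups with Cy5 alone and 140 without CD 3 rat 5, against 5 as reported. In CD 14 against CD 3, 205 passed without that rat, against 0 as reported. The sign turned for Cp in CD 14 minus CD 3 (-0.14) and Smad4 in BD 14 minus BD 3 (-0.22) with slide as a fixed block, and for the Tfr2 interaction with Cy5 alone (-1.52, adjusted p = 0.424, against 0.04). Tfrc with Slc11a2 passed after adjustment once slide means were removed. In 109 further cases a difference changed sign with an unadjusted p of 0.05 or above in both settings. The widest change was for Cp in BD 14 minus BD 3, groups that shared no slide, from 0.64 to -0.96 with slide as a fixed block. The cause was not tested. Same-numbered rats did not deviate together (correlations of -0.26 to 0.29), so numbers do not pair rats. With rat number as a replicate block the Hamp difference of BD 14 minus BD 3 was -0.01 and no iron gene passed. Dim probes such as Bmp6, Acvr1 and the second Tfrc probe limit what can be read from them.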
